A study of Arabidopsis thaliana with 8 samples.

Results

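WRKY genes, which encode a family of plant transcription factors, were examined in shoot and root RNA of Arabidopsis thaliana. The members were all genes whose symbol is WRKY followed by a number, which gave 70 of the 33199 genes in the table. The plants were of the accession Col-0, the common laboratory wild type, and the labels give no allele, agent or treatment other than the tissue. RNA was sequenced from 4 shoot and 4 root libraries. Because the growth protocol in the labels is that of a different plant, the sources used here do not give the age and growth conditions of these plants, nor whether the libraries of a tissue came from separate cultures. The p-values therefore measure the spread between these libraries, which may be technical. A pair of related genes, RRS1 and RRS1B, carry a WRKY domain on an immune receptor and lie outside the symbol rule. WRKY19, which the table's family column lists under a protein kinase domain, was kept.

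WRKY proteins carry a DNA-binding domain that opens with the short amino acid signature that names the family and ends in a zinc-binding motif. The domain contacts the W-box, a DNA element around the core TGAC. Many WRKY promoters hold W-boxes themselves, through which members can regulate one another. The family is best known for immune responses downstream of MAP kinases and salicylic acid, and also acts in leaf senescence, phosphate nutrition, seed and trichome development and abiotic stress. Group I proteins usually carry a pair of domains, groups IIa to IIe carry 1 domain with different flanking sequences, and group III carries a different zinc finger.

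The codons of the signature are shown because they are the shared mark of the family and show where members depart from it. The coding sequences of RefSeq (TAIR10.1) held 1 signature in 57 members and 2 in 13 members, all of group I. Each line gives the 21 bases of a signature, 5′ to 3′, with its sixth codon in capitals. WRKY33, a regulator of resistance to necrotrophic fungi, is shown for both of its domains, WRKY65 as the most abundant member in root and WRKY75 as a root member linked to phosphate uptake.
WRKY33 first domain: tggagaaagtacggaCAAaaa
WRKY33 second domain: tggagaaaatacggcCAGaaa
WRKY65: tggcgtaagtacggcCAAaag
WRKY75: tggaggaaatatggcCAAaag
WRKY50: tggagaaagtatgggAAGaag
WRKY51: tggaggaagtatggcAAGaaa
WRKY59: tggaggaaatacggaAAGaag
WRKY50, WRKY51 and WRKY59 were the 3 members whose sixth codon was AAG (lysine) in place of a glutamine codon. They all belong to group IIc, and their levels in shoot and root differed from each other as described with that group.

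The libraries held 9857791 to 12460762 reads on genes. Values are FPKM (fragments scaled by gene length and library size), so they can be compared between genes, and 3 reads on a gene of 1 kb corresponded to 0.192 to 0.375 FPKM. Marker genes followed the labelled tissues. All 6 shoot markers (LHCB1.1, RBCS1A, CHLH, FIL, CER6 and SPCH) were called higher in shoot, and all 6 root markers (PIN2, CASP1, PER64, SMB, RHD6 and PLT1) higher in root. The summed shoot markers reached 28210 to 33870 FPKM in shoot, and 145.3, 82.8, 18.5 and 19.3 FPKM in root libraries 1 to 4, with FIL at 0 reads in root. The summed root markers reached 273 to 404 FPKM in root and 0.931 to 3.51 FPKM in shoot, with SMB, RHD6 and PLT1 at 0 reads in shoot. Root libraries 1 and 2 thus held more shoot marker signal than libraries 3 and 4, and the calls that changed without them are given beside the genes. In whole organs, fewer cells of a type and less RNA per cell cannot be told apart.

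WRKY transcripts were more often higher in root than in shoot. Of the 70 members, 53 reached 0.5 FPKM in 4 or more of the 8 libraries and were tested with limma on log2(FPKM + 0.5), with p-values adjusted by the Benjamini-Hochberg method over all 20314 genes tested and a call at an adjusted p under 0.05. In root, 26 of the 53 (49.1%) were called higher, against 37.6% of all genes tested. In shoot, 10 of the 53 (18.9%) were called higher, against 32.0% of all genes. The other 17 were not called. The median log2 fold change, root minus shoot, was 0.74 over the tested members and 0.07 over all genes. Setting the members at 0 reads in shoot to their lower bound could not move this median, because their fitted values already lay above it. On this scale the change of low genes is understated.

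Many of the root differences were large. Called differences of at least 2-fold numbered 24 in root (45.3%, against 20.9% of all genes) and 8 in shoot (15.1%, against 18.1%). In 25 members (47.2%, against 34.7% of all genes) every root library lay above every shoot library, and in 9 members (17.0%, against 30.1%) every shoot library lay above every root library. Members that passed the minimum in a single tissue had to differ, so these shares are descriptions. Of the 53 tested members, 10 (18.9%) reached 0.5 FPKM in no shoot library, against 6.83% of all genes tested, and 1 reached it in no root library, against 3.19%. The direction of the counts also rests on the scaling in part. The library sizes behind the deposited FPKM were 0.770 to 0.865 times the read totals in shoot and 1.18 to 1.25 times in root. With read totals alone, 39 members were called higher in root and 8 in shoot, so root made up 83.0% of the calls in place of 72.2%. All genes moved the same way at that setting, to 59.8% called higher in root and 19.7% in shoot, and their median from 0.07 to 0.58. The 13 members added to the root calls were WRKY1, WRKY4, WRKY6, WRKY7, WRKY25, WRKY32, WRKY33, WRKY40, WRKY44, WRKY45, WRKY46, WRKY47 and WRKY53, and WRKY20 and WRKY22 lost their shoot calls.

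The family's summed level was 572, 422, 516 and 401 FPKM in shoot libraries 1 to 4 and 821, 789, 828 and 866 FPKM in root libraries 1 to 4. The root sums all lay above the shoot sums, with a ratio of the means of 1.73. A mean of at least 10 FPKM was reached by 18 members in shoot and 25 in root, and a mean of at least 1 FPKM by 36 and 51. WRKY65 alone held 14.2% of the summed root FPKM, and WRKY15 held 12% of the summed shoot FPKM.

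**Figure D1:**
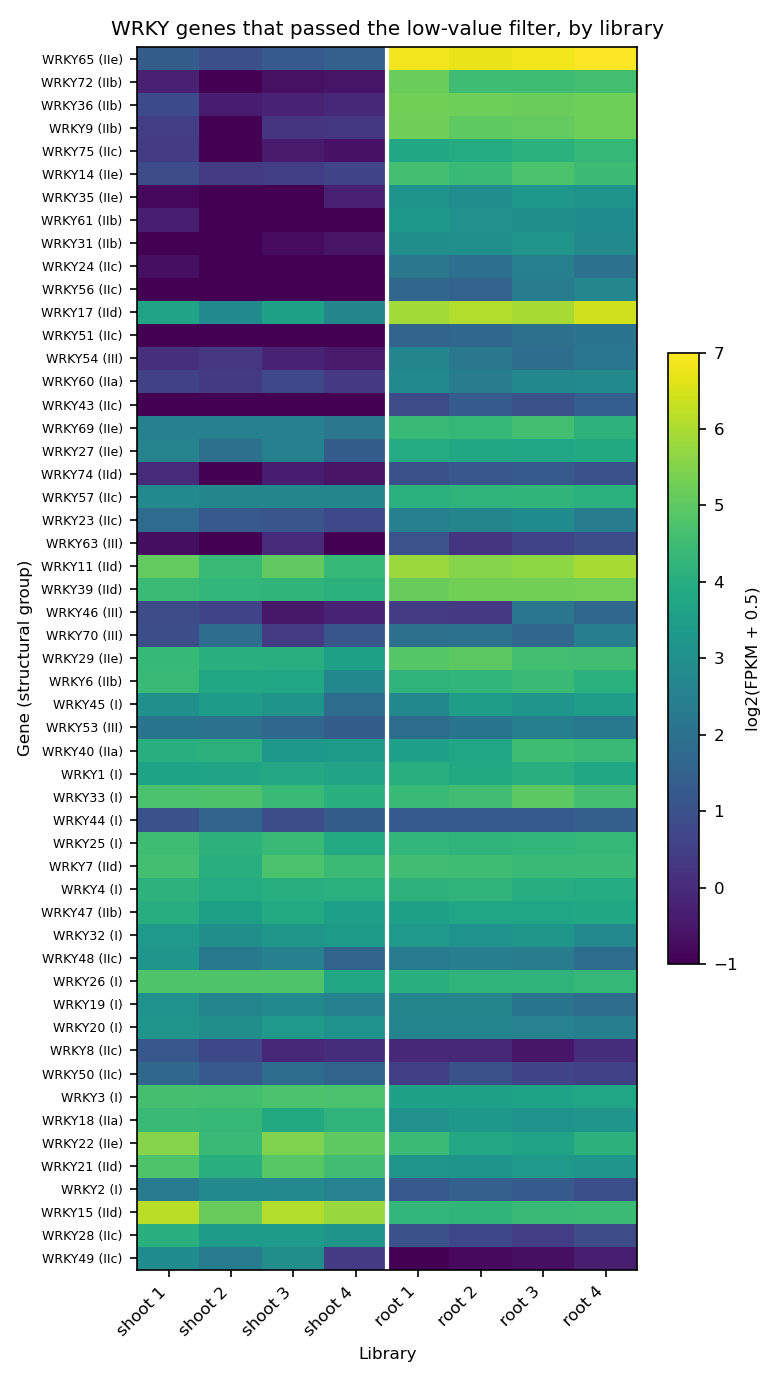
Level of the 53 tested WRKY genes (rows, structural group in brackets) in the 4 shoot and 4 root libraries (columns), as log2(FPKM + 0.5) from dark (low) to bright (high), ordered by the root minus shoot difference. WRKY65, WRKY72, WRKY36 and WRKY9 at the top are bright in all 4 root libraries and dark in all 4 shoot libraries, and WRKY15, WRKY28 and WRKY49 at the bottom are brighter in shoot.

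The structural groups differed in how their members were distributed between the tissues. In group I, 0 of 12 tested members were called higher in root and 3 in shoot, with a median log2 fold change of -0.05. In group IIb, 5 of 7 were called higher in root and 0 in shoot (median 3.87), and in group IIe, 6 of 7 in root and 1 in shoot (median 1.94). Group IIc had 7 of 12 higher in root and 3 in shoot (median 1.41), and group IId had 4 and 2 of 7 (median 1.00). In group IIa, 1 of 3 was called higher in root and 1 in shoot, and in group III, 3 of 5 in root and 0 in shoot (median 0.95). Members that reached 0.5 FPKM in no shoot library had to lie higher in root, so these counts and medians are descriptions. Such members were WRKY31, WRKY61 and WRKY72 (IIb), WRKY24, WRKY43, WRKY51 and WRKY56 (IIc), WRKY74 (IId), WRKY35 (IIe) and WRKY63 (III). WRKY49 (IIc) reached that minimum in no root library and had to lie higher in shoot. The group I count depends on scaling, because with read totals alone 7 of its 12 tested members were called higher in root and 2 in shoot (median 0.47), close to the shares of all genes at that setting (59.8% and 19.7%, median 0.58). WRKY45 was counted in group I, as RefSeq's note has it, although its coding sequence holds 1 signature and was closest to that of WRKY75 of group IIc (68.2% identity). With WRKY45 in group IIc, chosen after seeing the data, the median was -0.11 for group I (of 11 tested) and 1.38 for group IIc (of 13). The counts, 0 in root and 3 in shoot for group I and 7 and 3 for group IIc, could not change, because WRKY45 was not called. No test of the difference between groups was made, so none is called particular to a group.

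**Figure D2:**
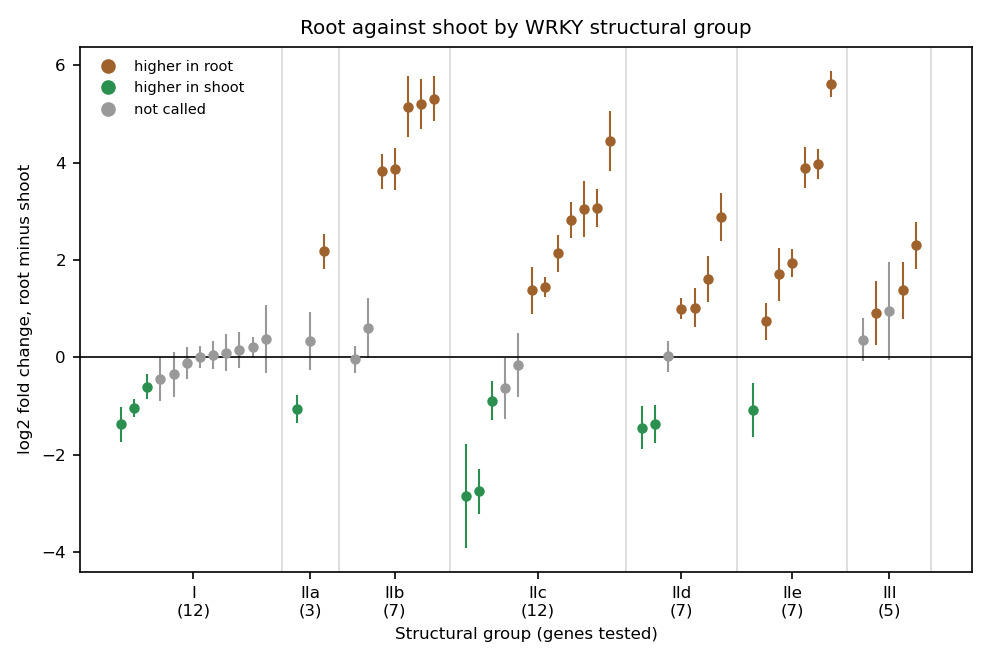
Log2 fold change, root minus shoot, of each tested WRKY gene by structural group, with bars for the 95% confidence interval from the limma fit; members with 0 or 1 read in shoot are drawn at their fitted value, which depends on the pseudocount. Most group IIb and IIe points lie above 0 (higher in root), the group I points lie around or below 0, and groups IIc and IId have called members on both sides.

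Group I holds WRKY33, which activates camalexin synthesis and is phosphorylated by MPK3 and MPK6. WRKY33 measured 25.3, 26.6, 20.9 and 16.4 FPKM in shoot libraries 1 to 4 and 20.7, 22.9, 30.9 and 24.1 FPKM in root libraries 1 to 4. The tissues overlapped, with a log2 fold change of 0.15 (95% interval -0.22 to 0.52, adjusted p = 0.437 in limma), and WRKY33 was called higher in root with read totals alone (0.70, adjusted p = 0.00267). It was the most abundant tested member of its group over the 8 libraries. WRKY33 overlaps a long non-coding RNA by 272 bases and a protein-coding gene by 26 bases on the other strand, and WRKY2, WRKY4, WRKY9 and WRKY40 overlap such genes by 34 to 70 bases. Reads from the strands cannot be told apart here.

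WRKY3 and WRKY4, which both contribute to resistance to necrotrophs, are each other's closest relatives by coding sequence (77.2% identity) and differed in pattern. WRKY3 measured 24.4, 23.5, 26.4 and 25.5 FPKM in shoot and 11.6, 11.5, 12 and 12.5 FPKM in root, so every shoot library lay above every root library. It was higher in shoot with a log2 fold change of -1.04 (SE 0.08, adjusted p = 7.63e-07, limma). WRKY4 measured 17.5, 14.6, 15.8 and 16.7 FPKM in shoot and 17.5, 17.9, 15.4 and 14.6 FPKM in root, with a log2 fold change of 0.02 (95% interval -0.21 to 0.24, adjusted p = 0.895). With read totals alone WRKY4 was called higher in root (0.56, adjusted p = 0.00148), and the sign of its value changed under several other settings, so no direction is given for WRKY4. WRKY2, which acts in the polarity of the zygote, measured 4.51, 6.42, 6.32 and 5.37 FPKM in shoot and 1.88, 2.22, 1.97 and 1.44 FPKM in root, again with no overlap. WRKY2 was higher in shoot (log2 fold change -1.37, SE 0.16, adjusted p = 2.2e-05). The third call of the group was WRKY20, at 8.40 ± 0.953 FPKM in shoot and 5.36 ± 0.349 FPKM in root (mean ± SD, n = 4; log2 fold change -0.60, adjusted p = 9.43e-04), and its call was lost with read totals alone (-0.08, adjusted p = 0.599). The remaining tested members of group I, among them WRKY25 and WRKY26 of the heat response and WRKY44, which acts in trichomes and the seed coat, were not called. Of these, WRKY19 measured 8.05, 5.66, 6.45 and 5.21 FPKM in shoot and 5.72, 5.77, 3.84 and 3.13 FPKM in root, with a log2 fold change of -0.44 (adjusted p = 0.0793), and was called higher in shoot without root libraries 1 and 2 (-0.77, adjusted p = 0.0115) or without either one (adjusted p = 0.047 and 0.0471). WRKY26 was called higher in shoot without shoot library 4 (-0.60, adjusted p = 2.62e-04). In the other direction, WRKY1 (log2 fold change 0.22, adjusted p = 0.0627 in limma) was called higher in root without root library 4 (0.26, adjusted p = 0.0327).

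Group IIa consists of WRKY18, WRKY40 and WRKY60, which bind each other and jointly restrain basal defence and abscisic acid responses. WRKY18 measured 20.7, 19.8, 14.1 and 17.8 FPKM in shoot and 7.70, 9.14, 8.16 and 8.42 FPKM in root, and WRKY60 measured 0.946, 0.790, 1.20 and 0.763 FPKM in shoot and 6.47, 4.68, 6.14 and 6.46 FPKM in root. The tissues did not overlap for either gene, and the directions were opposite, with log2 fold changes of -1.06 for WRKY18 (SE 0.13, adjusted p = 2.44e-05) and 2.18 for WRKY60 (SE 0.16, adjusted p = 5.06e-07, limma). WRKY40 measured 16, 17.1, 9.05 and 9.66 FPKM in shoot and 11.0, 12.5, 22.2 and 20.5 FPKM in root. The tissues overlapped and WRKY40 was not called (log2 fold change 0.34, 95% interval -0.26 to 0.94, adjusted p = 0.284). In root, libraries 1 and 2 were low and libraries 3 and 4 high, and without root libraries 1 and 2 WRKY40 was called higher in root (log2 fold change 0.76, adjusted p = 0.0389), as it was with read totals alone (0.87, adjusted p = 0.00912).

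Group IIb held 3 of the 5 root-high members with the largest log2 fold changes. WRKY72, which acts in basal immunity, measured 0.340, 0, 0.148 and 0.178 FPKM in shoot and 36.7, 22.2, 22.6 and 23.2 FPKM in root. WRKY36, which represses HY5, a promoter of light responses, measured 1.25, 0.258, 0.360 and 0.436 FPKM in shoot and 38.9, 37.2, 35.5 and 37.0 FPKM in root. WRKY9, linked to suberin formation in roots, measured 0.870, 0, 0.680 and 0.731 FPKM in shoot and 37.7, 31.8, 33.3 and 37.1 FPKM in root. All 3 were low in every shoot library and high in every root library. Their log2 fold changes were 5.31 for WRKY72 (SE 0.21, adjusted p = 3.5e-09), 5.21 for WRKY36 (SE 0.23, adjusted p = 7.83e-09) and 5.15 for WRKY9 (SE 0.28, adjusted p = 3.91e-08). By level, WRKY72 stood at percentile 5.61 of the genes tested in shoot and percentile 80.9 in root, and WRKY9 at percentile 10.4 and percentile 85.9.

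WRKY31 and WRKY61 of group IIb were lower in level but as one-sided, at 0.0644 ± 0.0803 FPKM in shoot and 7.46 ± 0.861 FPKM in root for WRKY31 and at 0.0763 ± 0.153 FPKM and 7.76 ± 0.944 FPKM for WRKY61. Their log2 fold changes were 3.82 and 3.87 (SE 0.16 and 0.19, adjusted p = 5.75e-09 and 2e-08). WRKY6, a repressor of the phosphate exporter gene PHO1 that also acts in senescence, measured 20.2, 13.1, 12.8 and 6.09 FPKM in shoot and 18, 18.9, 20.9 and 16.7 FPKM in root. Shoot library 4 stood low and the tissues overlapped, with a log2 fold change of 0.61 (95% interval -0.01 to 1.23, adjusted p = 0.075). WRKY6 crossed the threshold under limma-voom (adjusted p = 0.0459), without shoot library 1 (0.85, adjusted p = 0.00965) and with read totals alone (1.14, adjusted p = 0.00389). WRKY42, also a repressor of PHO1 and the closest relative of WRKY31 by coding sequence (76.9% identity), averaged 0.276 FPKM in shoot and 0.420 FPKM in root and fell under the minimum.

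Group IIc, the group with the most members, split in both directions. WRKY75, an activator of phosphate uptake genes and a repressor of root hairs, measured 0.852, 0, 0.247 and 0.149 FPKM in shoot and 13.2, 14.7, 16.8 and 19.8 FPKM in root. WRKY57, known for drought tolerance, measured 6.67, 5.92, 5.84 and 5.89 FPKM in shoot and 16.7, 18, 18.3 and 16.6 FPKM in root. Every root library lay above every shoot library for both. WRKY75 had a log2 fold change of 4.44 (SE 0.28, adjusted p = 1.18e-07) and WRKY57, the most abundant tested member of the group, of 1.45 (SE 0.09, adjusted p = 1.66e-07). WRKY45, which like WRKY75 activates phosphate uptake, measured 7.54, 10.1, 8.30 and 3.02 FPKM in shoot and 6.12, 10.3, 8.81 and 10.7 FPKM in root, so its tissues overlapped and it was not called (log2 fold change 0.38, adjusted p = 0.307). WRKY23, which acts downstream of auxin, was higher in root by 1.38 on the log2 scale (adjusted p = 1.97e-04).

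Several root-high members of group IIc had no read at all in shoot, so their folds are lower bounds set against 3 reads over the 4 shoot libraries. WRKY56 measured 2.59, 2.37, 4.60 and 6.04 FPKM in root and was at least 39.9-fold higher there, and WRKY51 measured 2.43, 2.76, 3.35 and 3.74 FPKM and was at least 33.6-fold higher. WRKY43 measured 1.32, 2.01, 1.46 and 2.10 FPKM in root. WRKY24, the closest relative of WRKY56 (74.3% identity), had 1 read in shoot and measured 4.09, 3.31, 5.14 and 3.52 FPKM in root, so the root to shoot ratio was 126.7 (95% counting interval 22.5 to 5031). The root level of WRKY56 was higher in libraries 3 and 4 than in libraries 1 and 2, which WRKY51 showed to a lesser degree and WRKY24 did not.

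The members of group IIc on the shoot side were WRKY28, WRKY49 and WRKY50. WRKY28, an activator of the salicylic acid synthesis gene ICS1, measured 16.3, 9.97, 10.1 and 8.39 FPKM in shoot and 1.5, 1.16, 0.872 and 1.30 FPKM in root. WRKY49 measured 6.85, 4.38, 7.17 and 0.846 FPKM in shoot and 0, 0.0737, 0.123 and 0.289 FPKM in root, so shoot library 4 lay far under the other shoot libraries. The tissues did not overlap for either gene, with log2 fold changes of -2.75 for WRKY28 (SE 0.21, adjusted p = 5.63e-07) and -2.84 for WRKY49 (SE 0.48, adjusted p = 3.4e-04), the latter -3.41 without shoot library 4. WRKY50 and WRKY51, which both mediate the repression of jasmonate signalling by salicylic acid, stood on opposite sides although both have the lysine codon AAG in the signature. WRKY50 measured 2.66, 1.85, 3.05 and 2.46 FPKM in shoot and 0.887, 1.48, 1.11 and 0.991 FPKM in root (-0.89 on the log2 scale, SE 0.18, adjusted p = 0.00119), while WRKY51 was read in root libraries alone. WRKY59, the other member with that codon, averaged 0.0297 FPKM in shoot and 0.715 FPKM in root and fell under the minimum. WRKY8, the closest relative of WRKY28 (70.1% identity), was not called at 0.975 ± 0.618 FPKM in shoot and 0.398 ± 0.140 FPKM in root (adjusted p = 0.0669), but was called higher in shoot without shoot library 3 (-0.82, adjusted p = 0.0261) or 4 (-0.78, adjusted p = 0.0408). WRKY48, a negative regulator of basal resistance, measured 8.69, 4.23, 5.2 and 2.51 FPKM in shoot and 4.43, 4.87, 4.58 and 3.05 FPKM in root and was not called (adjusted p = 0.644), with a sign that changed between settings.

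Group IId proteins bind calmodulin, and the group included the most abundant shoot member. WRKY15, a regulator of leaf growth and of salt and oxidative stress responses, measured 72.0, 34.5, 67.7 and 54.2 FPKM in shoot and 19.0, 18.4, 20.8 and 21.4 FPKM in root. WRKY21 measured 27.1, 16, 29.8 and 22.9 FPKM in shoot and 8.43, 8.26, 9.64 and 8.71 FPKM in root. Both had the lowest shoot value in library 2, and still every shoot library lay above every root library. The log2 fold changes were -1.45 for WRKY15 (SE 0.20, adjusted p = 6.83e-05) and -1.37 for WRKY21 (SE 0.17, adjusted p = 3.36e-05). WRKY15 lies at bases 9924886 to 9926372 of chromosome 2 in TAIR10.

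WRKY11 and WRKY17, related negative regulators of basal resistance (77.1% identity), were higher in root. WRKY17 measured 12.1, 6.83, 11.4 and 5.89 FPKM in shoot and 58.7, 67.3, 61.9 and 85.1 FPKM in root, and WRKY11 measured 33.0, 20.4, 32.5 and 20.1 FPKM in shoot and 55.7, 45.9, 49.8 and 61.4 FPKM in root. In shoot both were high in libraries 1 and 3 and low in libraries 2 and 4. The log2 fold change was 2.89 for WRKY17 (SE 0.22, adjusted p = 6.24e-07) and 1.02 for WRKY11 (SE 0.18, adjusted p = 4.24e-04), so WRKY11 was the more abundant of the pair in shoot and WRKY17 in root. WRKY39, which takes part in the heat response, measured 21.5, 19.0, 18.3 and 16.8 FPKM in shoot and 34.6, 39.0, 39.0 and 40.0 FPKM in root (1.00 on the log2 scale, SE 0.10, adjusted p = 3.76e-06). Its closest relative WRKY74 (77.4% identity) was higher in root as well, at 0.231 ± 0.201 FPKM in shoot and 1.67 ± 0.2 FPKM in root (1.6 on the log2 scale, SE 0.21, adjusted p = 5.28e-05). WRKY7 averaged 21.7 ± 4.51 FPKM in shoot and 21.7 ± 1.22 FPKM in root and was not called (adjusted p = 0.89).

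Group IIe contained WRKY65, the member with the largest log2 fold change of the 53 tested. WRKY65 lies at bases 10236337 to 10237990 of chromosome 1 in TAIR10. It measured 2.07, 1.45, 1.93 and 2.25 FPKM in shoot and 116, 107, 114 and 133 FPKM in root, with no overlap and little spread within either tissue. The log2 fold change was 5.61 (SE 0.12, adjusted p = 1.2e-10), and by level WRKY65 stood at percentile 22.3 of the genes tested in shoot and percentile 96.4 in root. WRKY14 measured 1.26, 0.808, 0.894 and 1.08 FPKM in shoot and 23.9, 20.4, 26.1 and 21.7 FPKM in root, and its closest relative WRKY35 (72.6% identity) measured 0.0621, 0, 0 and 0.326 FPKM in shoot and 8.36, 7.14, 9.12 and 8.32 FPKM in root. The tissues did not overlap for either gene (log2 fold changes 3.96 and 3.90, SE 0.14 and 0.19, adjusted p = 1.51e-09 and 1.66e-08). WRKY69 and WRKY27, the latter a factor in bacterial wilt symptoms, were higher in root by 1.94 and 1.70 (adjusted p = 1.72e-07 and 9.06e-05). On the other strand, WRKY69 overlaps a protein-coding gene by 373 bases, at 6.61 FPKM in shoot and 3.405 FPKM in root. A long non-coding RNA on that strand overlaps it by 345 bases, at 0.681 FPKM in shoot and 6.225 FPKM in root. The source of reads in these overlaps cannot be told apart.

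WRKY22 and WRKY29, which act downstream of the flagellin receptor and its MAP kinases, had opposite calls. WRKY22 measured 46.4, 20.6, 43.2 and 31.9 FPKM in shoot and 21.2, 13.8, 12.3 and 17.0 FPKM in root, and WRKY29 measured 19.99, 16.5, 15.9 and 11.2 FPKM in shoot and 29.1, 31.5, 23.2 and 22.9 FPKM in root. Shoot library 2 of WRKY22 lay under root library 1, whereas the tissues of WRKY29 did not overlap. WRKY22 was higher in shoot (log2 fold change -1.08, SE 0.25, adjusted p = 0.00266) and lost its call with read totals alone (-0.54, adjusted p = 0.0925), while WRKY29 was higher in root (0.74, SE 0.17, adjusted p = 0.00274).

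Group III, which is linked to salicylic acid and senescence, had few members above the minimum. WRKY54 measured 0.562, 0.698, 0.349 and 0.253 FPKM in shoot and 5.90, 4.12, 3.2 and 3.92 FPKM in root (2.30 on the log2 scale, SE 0.21, adjusted p = 3.15e-06). WRKY70, which acts with WRKY54 in delaying senescence, measured 1.41, 3.23, 0.815 and 1.73 FPKM in shoot and 3.39, 3.49, 2.59 and 4.82 FPKM in root. The tissues of WRKY70 overlapped, and its call (log2 fold change 0.90, adjusted p = 0.0188) was lost without root library 4 (0.77, adjusted p = 0.0598) and without root libraries 1 and 2 (0.92, adjusted p = 0.0844). WRKY63 was higher in root by 1.38 (adjusted p = 8.51e-04). WRKY53, a promoter of senescence and the most abundant tested member of the group, measured 3.80, 3.55, 2.77 and 2.07 FPKM in shoot and 3.08, 3.84, 4.98 and 4.19 FPKM in root and was not called (adjusted p = 0.126). It overlaps HMGB6 by 341 bases on the other strand, a gene at 38.2 FPKM in shoot and 36.1 FPKM in root, and the source of reads in the overlap cannot be told apart.

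WRKY46, which acts with WRKY54 and WRKY70 in defence, measured 1.27, 1.01, 0.221 and 0.357 FPKM in shoot and 0.803, 0.746, 3.95 and 2.74 FPKM in root. Root libraries 1 and 2 lay within the shoot range, and root libraries 3 and 4 lay above it. WRKY46 was not called over all libraries (log2 fold change 0.95, 95% interval -0.05 to 1.96, adjusted p = 0.0815). Without root libraries 1 and 2 the value was 1.74 (adjusted p = 0.0053), and it also crossed the threshold with read totals alone (1.30, adjusted p = 0.019) and without either of those libraries (1.21 and 1.23, adjusted p = 0.0418 and 0.0384). WRKY46, WRKY40 and WRKY56 were thus all lower in the root libraries with more shoot marker signal, whose part in these values was not tested. RRTF1, a stress-induced transcription factor gene among the target genes listed for the family, showed the same split in root, at 0.323, 0.365, 1.32 and 1.49 FPKM. The split was not shared by the family. In WRKY4, WRKY7, WRKY19, WRKY20, WRKY29, WRKY36, WRKY54 and WRKY61, root libraries 1 and 2 both lay above libraries 3 and 4. WRKY29, for example, measured 29.1, 31.5, 23.2 and 22.9 FPKM in root libraries 1 to 4. No share of members or of all genes was worked out for either split.

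**Figure D3:**
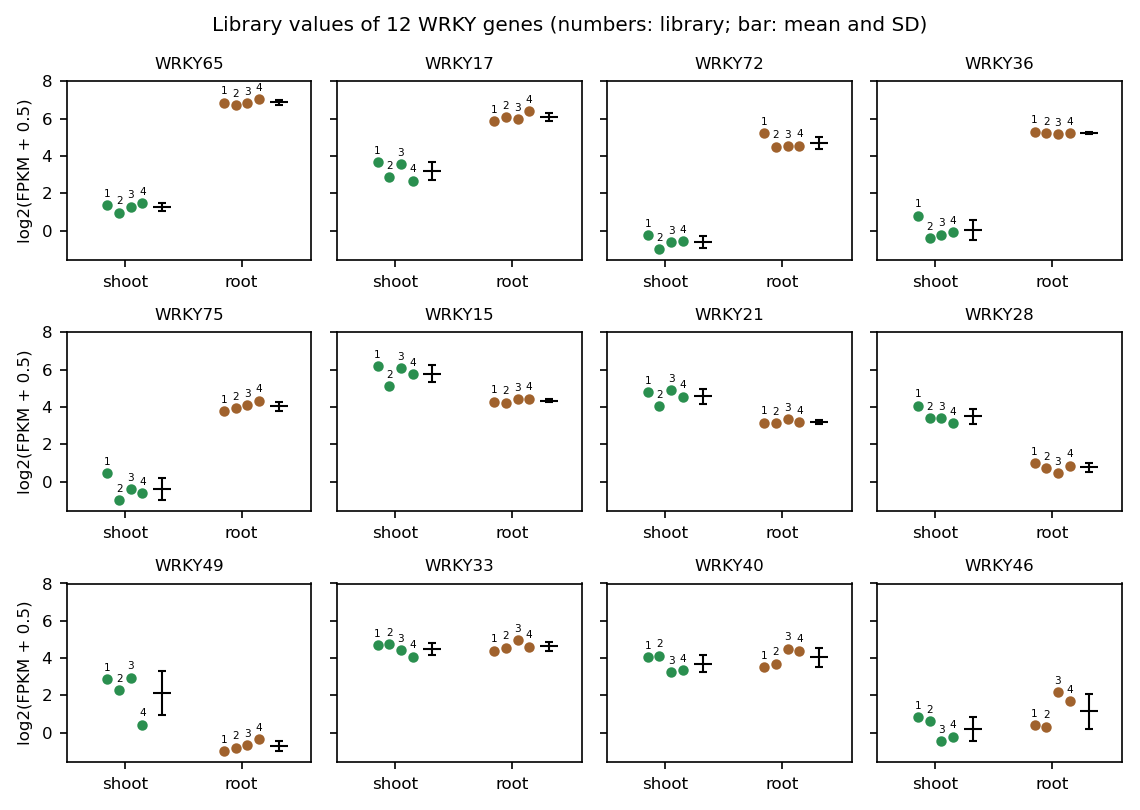
Level of 12 WRKY genes in each library as log2(FPKM + 0.5), with 1 numbered point per library and the mean and SD of each tissue beside the points. The points of WRKY65 lie apart by tissue with little spread, those of WRKY33 and WRKY40 intermingle, and WRKY46 and WRKY40 have root libraries 3 and 4 above root libraries 1 and 2.

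The closest pairs by coding-sequence identity could lie on the same side or on opposite sides. Within groups, 20 pairs were each other's closest match by this identity, and both genes were tested in 13 of them. It is matched bases over the longer sequence, so it also depends on length. At 54.8%, WRKY25 with WRKY44 stood near WRKY45 with WRKY24 of group IIc (54.6%), which form no pair. The pairs of low identity may therefore not be closest by other measures. WRKY45 was compared within group I alone, so its closest sequence, WRKY75 of group IIc (68.2% identity), forms no pair with it here. WRKY75 was called higher in root (log2 fold change 4.44) and WRKY45 was not called (0.38). In 8 of the 13 pairs both were called higher in root and in 0 both were called higher in shoot. Counted singly, 49.1% of the tested members were called higher in root and 18.9% in shoot, against 37.6% and 32.0% of all genes. WRKY24, WRKY35, WRKY56, WRKY61, WRKY72 and WRKY74 of these root pairs passed the minimum through root libraries alone. No share expected for pairs was worked out. The calls were opposite in 2 pairs (WRKY18 with WRKY60 and WRKY22 with WRKY29), 1 gene of the pair was called in 2 pairs (WRKY3 with WRKY4 and WRKY28 with WRKY8), and neither gene was called in 1 pair (WRKY25 with WRKY44). Where both were higher in root the sizes could still differ, as for WRKY65 and WRKY69 (log2 fold changes 5.61 and 1.94) and WRKY17 and WRKY11. The pair with the highest identity, WRKY64 and WRKY67 (81.8%), lies 3857 bases apart on chromosome 1 and had no read in any library. At 81.8% identity these copies are not near-identical. The sources used here do not say how reads shared between copies were treated, and whether that bears on this pair was not tested.

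**Figure D4:**
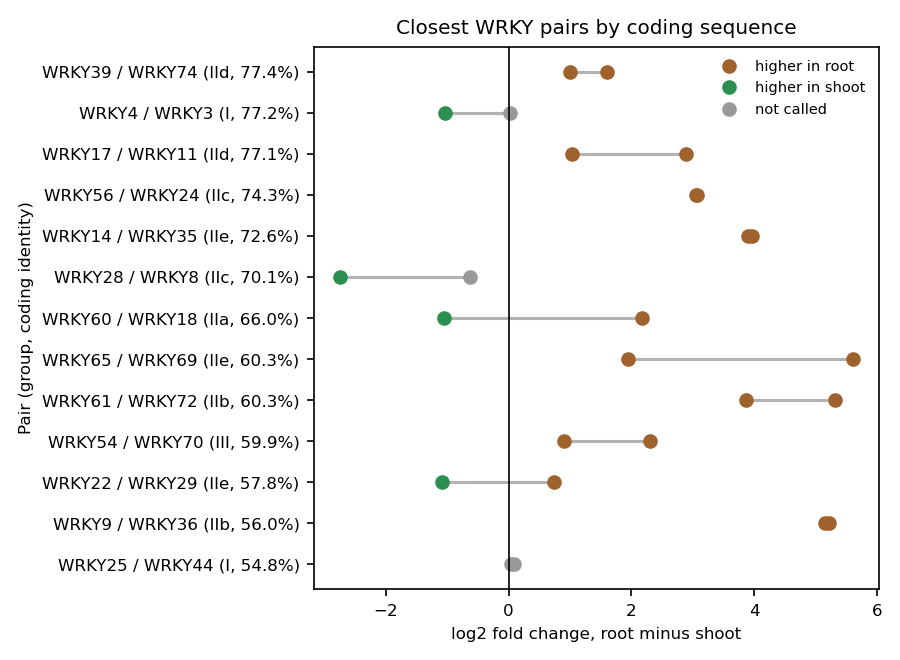
Log2 fold changes, root minus shoot, of the 13 WRKY pairs closest by coding-sequence identity within their structural group, with both genes tested. The genes of a pair are joined by a line and coloured by their call. WRKY24 and WRKY56, with 1 and 0 reads in shoot, are drawn at their fitted value. In 8 pairs both genes lie on the root side and are called, and the lines of WRKY18 with WRKY60 and WRKY22 with WRKY29 cross 0.

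The promoters of 4 members are shown because WRKY proteins bind W-boxes and each of these promoters holds 2 of them. WRKY17 and WRKY9 were higher in root, WRKY15 was higher in shoot and WRKY33 was not called. Each sequence spans 250 bases before to 50 bases after the annotated start in RefSeq (TAIR10.1), 5′ to 3′ on the gene's strand. Capitals mark the letters TTGACC or TTGACT, or the same on the other strand (GGTCAA or AGTCAA).
WRKY17, chr2:10439420-10439719, minus strand: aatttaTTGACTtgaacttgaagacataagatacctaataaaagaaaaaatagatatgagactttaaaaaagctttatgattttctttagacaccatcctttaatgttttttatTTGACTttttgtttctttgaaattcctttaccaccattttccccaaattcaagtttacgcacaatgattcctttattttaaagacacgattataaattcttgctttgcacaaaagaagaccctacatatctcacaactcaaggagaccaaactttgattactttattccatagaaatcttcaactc
WRKY15, chr2:9924636-9924935, plus strand: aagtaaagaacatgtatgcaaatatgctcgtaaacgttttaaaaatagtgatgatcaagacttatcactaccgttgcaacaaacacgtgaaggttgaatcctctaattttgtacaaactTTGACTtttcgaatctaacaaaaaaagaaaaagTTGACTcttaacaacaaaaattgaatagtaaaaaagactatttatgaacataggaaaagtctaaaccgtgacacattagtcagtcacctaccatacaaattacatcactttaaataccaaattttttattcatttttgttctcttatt
WRKY9, chr1:25543699-25543998, plus strand: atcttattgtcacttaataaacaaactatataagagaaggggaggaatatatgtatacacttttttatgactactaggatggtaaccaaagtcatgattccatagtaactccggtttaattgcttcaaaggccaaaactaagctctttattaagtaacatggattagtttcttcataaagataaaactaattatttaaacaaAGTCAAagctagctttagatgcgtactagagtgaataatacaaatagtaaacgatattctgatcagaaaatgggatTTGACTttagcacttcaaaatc
WRKY33, chr2:16107985-16108284, plus strand: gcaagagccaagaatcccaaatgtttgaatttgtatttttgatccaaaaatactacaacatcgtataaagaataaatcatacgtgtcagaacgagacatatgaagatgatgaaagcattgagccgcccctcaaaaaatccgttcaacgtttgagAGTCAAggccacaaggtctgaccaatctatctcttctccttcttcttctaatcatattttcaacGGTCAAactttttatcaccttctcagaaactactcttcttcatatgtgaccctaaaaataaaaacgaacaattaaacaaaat
A W-box by these letters stood in 25 of the 70 WRKY promoters (35.7%) and in 32.4% of the 27443 promoters of protein-coding genes searched. Promoters with 2 or more numbered 12 of 70 (17.1%), against 7.62%, and WRKY30 was the 1 member with 3. The letters were in 8 of 26 promoters of members called higher in root (30.8%), 3 of 10 called higher in shoot (30.0%), 7 of 17 not called (41.2%) and 7 of 17 not tested. No test was made, and a match is a description of letters, not a binding site.

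Within the shoot, the tested WRKY genes had a higher median SD than all genes tested, which were not matched to them for level. Of the members, 18.9% reached 0.5 FPKM in no shoot library, against 6.83% of all genes, and the part of level was not tested. The median SD of log2(FPKM + 0.5) over the 4 shoot libraries was 0.316 for the tested members and 0.191 for all genes tested, and in root 0.204 and 0.188. Shoot library 1 was the highest in 30 of the 50 members with a single highest shoot library (60.0%, against 26.4% of all genes). Shoot library 4 was the lowest in 20 of the 45 members with a single lowest one (44.4%, against 26.3%), and library 2 in 16 (35.6%, against 27.2%). In root the gaps were smaller, with library 3 highest in 15 of 53 (28.3%, against 20.2%) and library 4 in 18 (34.0%, against 33.0%). WRKY6, WRKY48 and WRKY49 had the widest shoot ranges of the tested members as a ratio of FPKM + 0.5, each with library 4 the lowest. Among the senescence markers, SAG12 had no read in any library, and ORE1, a senescence regulator, measured 17.5, 18.6, 12.6 and 10.0 FPKM in shoot. What sets the shoot libraries apart was not tested.

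**Figure D5:**
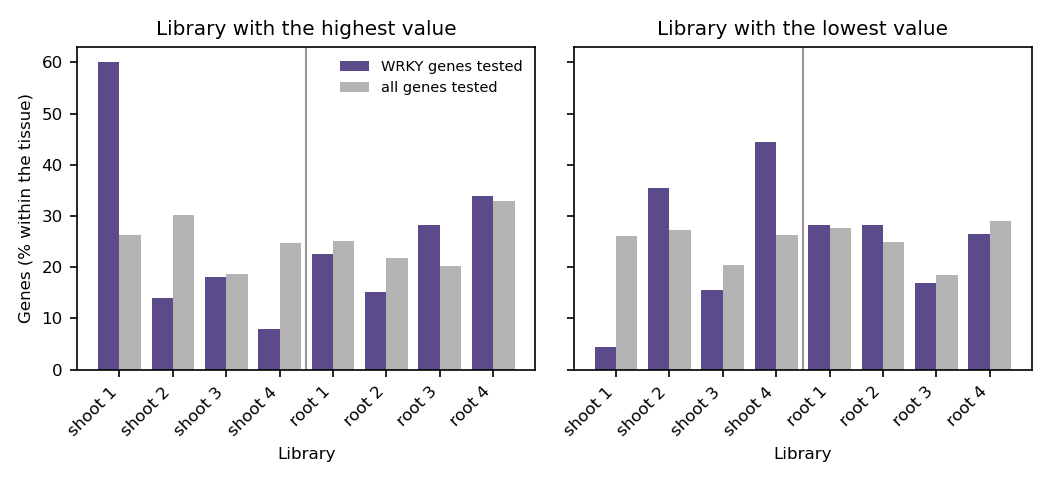
Share of WRKY genes and of all genes tested, in percent within a tissue, for which each library had the highest (left) or the lowest (right) value. Shoot library 1 is highest for 60.0% of the WRKY genes and for 26.4% of all genes, and shoot library 4 is lowest for 44.4% and 26.3%.

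The 17 members not tested were low or silent in both tissues. WRKY41, WRKY64, WRKY66, WRKY67 and WRKY68 had no read in any library. The other 12 were WRKY10, an endosperm regulator, WRKY12 and WRKY13, which act in stem cell walls, WRKY34, which acts in pollen, WRKY71, which acts in shoot branching, and WRKY30, WRKY38, WRKY42, WRKY55, WRKY58, WRKY59 and WRKY62. WRKY12, WRKY34 and WRKY55 had reads in shoot libraries alone, with 2, 2 and 4 reads. WRKY38, a negative regulator of basal defence, measured 0.343, 0.967, 1.02 and 1.51 FPKM in root with no read in shoot, at least 14.1-fold higher, and WRKY71 was at least 6.93-fold higher. WRKY58 had 1 read in shoot and 93 in root, so the root to shoot ratio was 60.4 (95% counting interval 10.6 to 2412). With no minimum on low values, WRKY38, WRKY58, WRKY59 and WRKY71 were called higher in root (adjusted p = 3.3e-04, 3.11e-04, 2.91e-04 and 0.00425), which raised the root count to 30 of 65 members, while the shoot count stayed at 10.

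Genes that act with WRKY proteins did not share one direction. In the MAP kinase cascade that phosphorylates several members, 2 of 9 tested genes were called higher in root and 5 in shoot (median log2 fold change -0.39), where 37.6% and 32.0% of all genes were called. MPK3 measured 40.4, 49.9, 36.4 and 38.7 FPKM in shoot and 29.0, 28.6, 33.3 and 34.0 FPKM in root (log2 fold change -0.40, adjusted p = 0.009), while MKK5 was higher in root by 0.42 (adjusted p = 0.00443). MPK6, at 40.5 ± 4.24 FPKM in shoot and 38.8 ± 2.23 FPKM in root, was not called (-0.06, adjusted p = 0.61 in limma). The largest called change of the cascade was that of MKK1, higher in shoot (-0.49, adjusted p = 0.00685). Of the VQ proteins, small partners that bind WRKY domains, 2 of 5 tested were called higher in root and 1 in shoot (median -0.20), near the shares of all genes. JAV1, a repressor of jasmonate defence, was higher in root at 4.73 ± 1.09 FPKM in shoot and 12.4 ± 1.25 FPKM in root (log2 fold change 1.32, adjusted p = 3.17e-05). MKS1, which links MPK4 to WRKY33, was higher in shoot (-0.67, adjusted p = 0.0124).

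Of 14 genes known as targets of WRKY proteins, 11 were tested, of which 5 were called higher in root and 2 in shoot (median 0.51), beside 37.6% and 32.0% of all genes. PHT1;1, a phosphate transporter gene activated by WRKY75, measured 2.06, 0.931, 2.13 and 2.10 FPKM in shoot and 275, 261, 286 and 297 FPKM in root (6.97 on the log2 scale, SE 0.18, adjusted p = 2.63e-10), a level that is uncertain because the gene has near-identical copies. PHO1, the phosphate exporter gene repressed by WRKY6 and WRKY42, was higher in root by 4.61 (adjusted p = 4.82e-09), and PAD3, the camalexin synthesis gene activated by WRKY33, by 3.35 (adjusted p = 3.8e-08), whereas WRKY33 itself was not called except with read totals alone. ICS1, a target of WRKY28, measured 9.82, 15.5, 8.34 and 9.86 FPKM in shoot and 2.49, 2.51, 2.62 and 2.38 FPKM in root (-1.89 on the log2 scale, SE 0.18, adjusted p = 3.11e-06), and so was higher in the tissue in which WRKY28 was higher. FRK1, a flagellin response gene downstream of WRKY22 and WRKY29, was higher in shoot (-1.07, adjusted p = 0.0224). Its tissues overlapped, with shoot library 4 at 0.894 FPKM within the root range of 0.8345 to 1.434 FPKM. Whether the levels of these genes depend on WRKY genes was not tested. RRS1 and RRS1B, with a WRKY domain outside the symbol rule, were both higher in shoot (log2 fold changes -0.68 and -0.97, adjusted p = 0.00179 and 5.24e-04).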

How the data were processed

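RNA-seq of Col-0 shoot and root was used, with 4 libraries of each, grouped by the tissue in the labels. Per the labels' protocols, mRNA was captured on poly-T beads and copied with random hexamers by steps that mark no strand. The TAIR10 build, featureCounts 1.5.0-p3 and HISAT2 2.0.5 are named, per the submitters' processing notes, and the sources used here do not give the strand setting or the handling of shared reads. The deposited values are FPKM made by the authors, on gene lengths and scaled library sizes. Whole reads were recovered from them and used for the other scalings, bounds and limma-voom.

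Genes with at least 0.5 FPKM in at least 4 libraries (20314, holding 99.9% of reads) were tested on log2(FPKM + 0.5) with a variance trend by limma 3.58.1 (R 4.3.3). Bounds and counting intervals (95%) cover counting error only. No library was a copy of another, as pairs within a tissue gave a chi-square per gene of 6.94 to 21.0, beyond sampling noise. The members and lists were chosen with earlier results of these data known.

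Named members are the 4 most abundant in each tissue, the 5 largest changes in each direction, and, in each structural group, the most abundant member, the largest change, the largest change against the majority and the closest pair. Added are the 3 with the widest range in each tissue, and other members are named with fewer values. Identity was taken from RefSeq coding sequences in place of proteins, as matched bases over the longer sequence. Structural groups were listed by hand, and RefSeq's notes give the same group for 48 of the 49 members where they name one, WRKY23 being the exception. All 70 members had the same start and end in the table and in RefSeq. Alternatives were pseudocounts of 0.1 and 1, no minimum or 1 FPKM, library totals alone, median of ratios, limma-voom, the replicate number as a block, leaving out each library, and leaving out root libraries 1 and 2.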

Additional observations from a re-analysis of the deposited data

Results flagged for a closer look

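In 70 sets of 4 libraries (35 named genes in each of 2 tissues), 3 had a highest library far from the others. Chance gives about 1 such set in 20. Sets at 0 in all 4 libraries could not be flagged, which holds for WRKY64 and WRKY67 in both tissues and WRKY56 in shoot. WRKY72 measured 36.7 FPKM in root library 1, against 22.2 to 23.2 FPKM in the other root libraries, and its root level lay above every shoot library with or without that library. WRKY57 measured 6.67 FPKM in shoot library 1, against 5.84 to 5.92 FPKM in the others. WRKY24 measured 0.129 FPKM in shoot library 1, which is 1 read, with 0 in the others, a set that is flagged by construction.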

How the results depend on the processing

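Leaving out 1 library at a time gave root counts of 26 to 27 members and shoot counts of 10 to 12, or 22 to 25 and 6 to 9 at 2-fold or more, and 13213 to 13909 genes called in all (14130 with every library). The counts in root and shoot were 27 and 11 with limma-voom, 26 and 10 with median of ratios, 25 and 9 with a minimum of 1 FPKM, 30 and 10 with none, and 27 and 11 without root libraries 1 and 2. With library totals alone 39 were called higher in root and 8 in shoot, and 2 rather than 8 at least 2-fold higher in shoot. WRKY4, which was not called, had a root call at 0.555 under library totals alone and a value of -0.10 without root libraries 1 and 2, and ranged from -0.03 to 0.0672 over the libraries left out in turn. WRKY48, not called either, was 0.33 with library totals alone and ranged from -0.426 to 0.11 over the libraries left out. The cause of these shifts was not tested.

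Shoot and root libraries of the same number had deviations correlated at 0.0359, 0.0152, 0.0564 and 0.071, none over 0.1. Shoot libraries 1, 3 and 4 correlated best with their own number, a hint from the data alone, and shoot library 2 with root library 4 (0.0238), so the numbers were not taken to pair the samples. With the replicate number as a block, 27 members were called higher in root and 12 in shoot, with WRKY6 added in root (adjusted p = 0.0406) and WRKY8 and WRKY19 in shoot (0.0498 and 0.0392), 24 and 8 at 2-fold or more, and 14104 genes in all. Members under about 0.5 FPKM rest on a few reads, which limits their precision.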
